A study of Mus musculus with 3 samples.

Results

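The inhibitory receptor genes *Pdcd1*, *Ctla4*, *Lag3*, *Havcr2*, *Tigit*, *Btla*, *Cd160*, *Cd200* and *Cd274* were followed in activated CD4 T cells cultured in 3 media. The 9 genes were chosen by name, and all 9 were found among the 23282 gene rows of the data. Of these, 7 had enough reads to be tested, as did 12770 of all rows, and *Havcr2* and *Tigit* did not. CD4 T cells from the spleen and lymph nodes of C57BL/6 mice (C57BL/6J and, in general, females of 6 to 8 weeks in the methods) were stimulated in every group with anti-CD3 and anti-CD28 antibodies at 2 µg/mL each for 72 h. Complete medium (CM) was RPMI with fetal bovine serum, dialyzed medium (DM) was RPMI without amino acids with dialyzed serum, and DM+Met was DM with 30 µM methionine. DM thus differs from CM in all amino acids of the base and in the small molecules of the serum. DM+Met differs from DM only in the added methionine. The study measured methionine in DM and found that it was present, so DM was not free of it. The comparison of DM+Met with DM is thus between more and less methionine, not between some and none. The total methionine in DM+Met is not known here. Each medium has 2 libraries, taken here as replicates because the study describes 2 biological samples per medium. The labels do not say that they came from separate cultures or mice, so the p-values measure only the spread between these libraries, which may be technical.

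Inhibitory receptors are surface proteins that restrain a T cell after it has been activated. PD-1, the product of *Pdcd1*, binds PD-L1 (*Cd274*) and PD-L2 (*Pdcd1lg2*) and recruits phosphatases that dampen signals from the antigen receptor and CD28, while CTLA-4 competes with CD28 for CD80 and CD86. LAG-3, TIM-3 (*Havcr2*), TIGIT, BTLA and CD160 have ligands of their own, and several of these receptors appear together on T cells that have been stimulated for long. The study asked whether PD-1 rises when CD4 T cells lack nutrients and whether methionine lowers it.

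Values are log2 of CPM plus 1, where CPM are reads scaled to a common library size that was adjusted by the TMM method. The kit reads the 3′ end of a transcript whatever its length, so reads of different genes were compared without dividing by length. Depth ranged from 8504794 to 12377317 reads per library, and 3 reads, the most that a count of 0 allows, correspond to 0.251 to 0.384 CPM. Floors and intervals on single libraries cover only the error of counting, because PCR copies were not told apart by molecular identifiers. DM library 1 stood apart from the others. Across tested genes its correlation with DM library 2 was 0.919, below the 0.940 and 0.947 of DM library 2 with the DM+Met libraries, so results on DM are also given without it. The ribosomal RNA precursor row *Rn45s* took 31.0% to 38.3% of the reads in CM and DM and 15.5% and 20.1% in DM+Met, and the TMM factors were 0.897 to 0.938 and 1.16 to 1.22, respectively.

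In DM, *Btla* rose, and *Ctla4* and *Lag3* fell relative to CM. The same 3 calls were made in DM+Met against CM, and no member passed the threshold between DM+Met and DM. *Pdcd1* had its highest mean in DM but did not pass the threshold in any comparison. Thus, 1 of the 7 tested members was called higher and 2 lower in DM, where 16.9% of all tested genes were called, 7.80% higher and 9.07% lower (limma, adjusted p below 0.05). In DM+Met against CM, 15.3% of all tested genes were called, 6.92% higher and 8.36% lower. In DM+Met against DM, 0.0548% of tested genes, 7 in number, were called. The median log2 fold change of the tested members was 0.55, −0.16 and 0.36 in DM against CM, DM+Met against DM and DM+Met against CM, and that of all tested genes was 0.066, 0.0090 and 0.061. Both comparisons with CM share its libraries, and both with DM share those of DM, so they are not independent of each other. Where libraries of the media are said below to lie apart or not to overlap, this only describes their order. With 2 libraries per medium such an order is frequent for unchanged genes too, and the share of all genes that show it is not given.

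**Figure D1:**
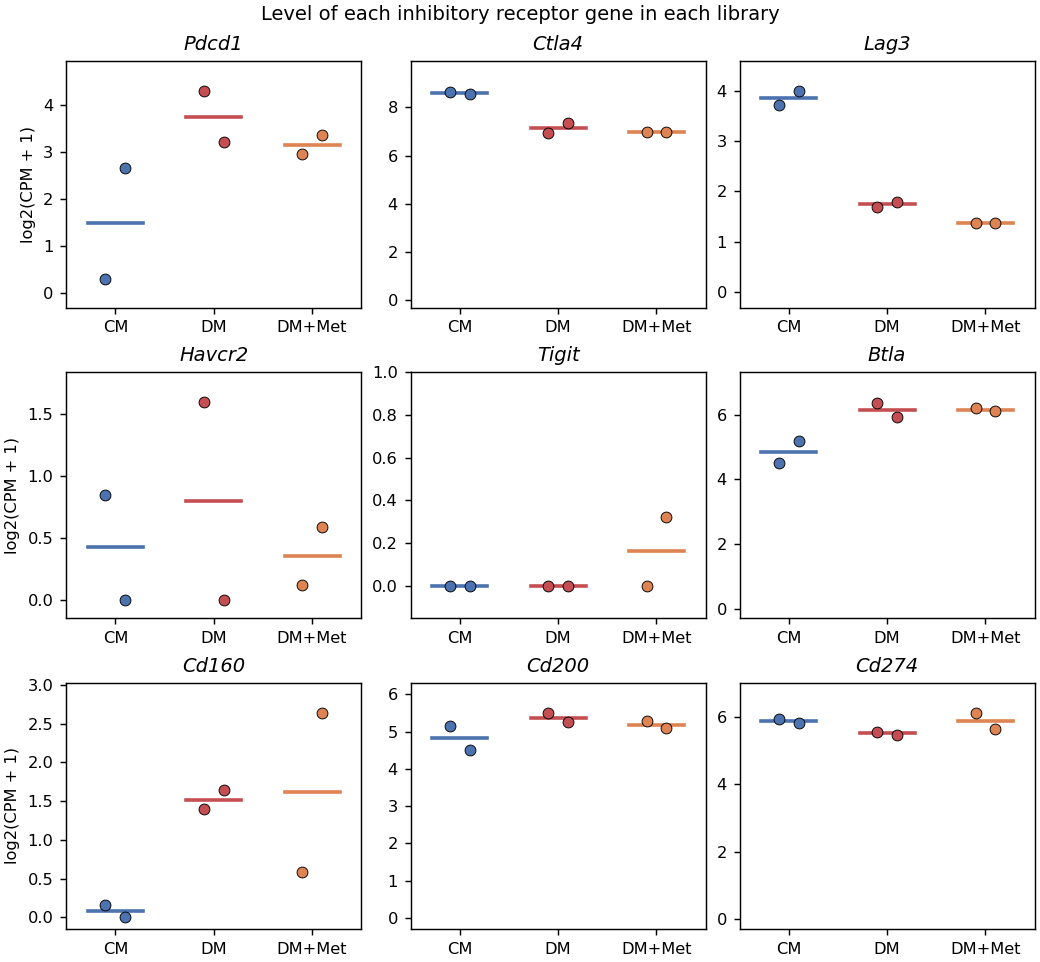
Level of the 9 genes as log2(CPM + 1) on the vertical axis (scales differ between panels) in CM, DM and DM+Met, with a point for each of the 2 libraries (library 1 left, library 2 right) and a line at their mean. *Ctla4* and *Lag3* lie higher in CM than in the other 4 libraries, *Btla* lies lower in CM, and *Pdcd1* has CM libraries that are 2.38 apart.

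To place these genes, the sequence around the start of transcription is shown for *Pdcd1*, the gene the study asked about, for *Ctla4*, the member with the smallest adjusted p, and for *Btla*, the member called higher. Each stretch runs 5′ to 3′ on the strand of the gene, from 250 bases before the start to 50 bases after, from RefSeq on GRCm38.p6. It lies at chr1:94052504-94052803 on the minus strand for *Pdcd1*, at chr1:60908775-60909074 on the plus strand for *Ctla4* and at chr16:45224087-45224386 on the plus strand for *Btla*. Capitals mark GGAAA or its reverse complement TTTCC, the core bound by NFAT factors that act downstream of the antigen receptor, and ACGTG or its reverse complement CACGT, a core bound by XBP1 and by other factors.
Pdcd1: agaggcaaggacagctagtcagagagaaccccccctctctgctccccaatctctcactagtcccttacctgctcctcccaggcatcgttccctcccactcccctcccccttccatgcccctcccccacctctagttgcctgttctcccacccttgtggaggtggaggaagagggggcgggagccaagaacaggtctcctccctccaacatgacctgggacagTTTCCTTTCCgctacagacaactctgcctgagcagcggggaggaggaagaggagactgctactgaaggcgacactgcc
Ctla4: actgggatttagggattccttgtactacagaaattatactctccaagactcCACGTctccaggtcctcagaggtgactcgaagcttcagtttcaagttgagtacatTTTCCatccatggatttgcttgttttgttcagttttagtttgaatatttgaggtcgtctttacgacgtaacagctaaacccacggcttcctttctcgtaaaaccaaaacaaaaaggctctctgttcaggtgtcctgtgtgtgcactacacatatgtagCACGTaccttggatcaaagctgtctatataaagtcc
Btla: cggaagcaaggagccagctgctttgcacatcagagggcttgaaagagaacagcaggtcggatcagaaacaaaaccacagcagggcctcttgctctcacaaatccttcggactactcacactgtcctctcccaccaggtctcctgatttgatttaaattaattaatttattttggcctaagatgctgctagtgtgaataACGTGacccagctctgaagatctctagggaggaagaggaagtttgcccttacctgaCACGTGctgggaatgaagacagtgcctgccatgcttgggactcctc
The *Pdcd1* stretch held 2 NFAT cores, first bases at −28 and −23 from the start, and 0 XBP1 cores. The *Ctla4* stretch held 1 NFAT core and 2 XBP1 cores. The *Btla* stretch held 0 NFAT cores and 3 XBP1 cores, of which a pair overlaps, since CACGTG reads the same on both strands. Of 32851 RefSeq promoters of this length, 61.34% held an NFAT core and 19.62% an XBP1 core, so the first is common. The AP-1 motif TGANTCA, present in 7.81% of promoters, was in none of these 3 stretches. These matches are descriptions of letters and not of bound sites. By chromatin immunoprecipitation, the study reported binding of spliced XBP1 at the PD-1 promoter in cells from tumor-conditioned medium, which is not among the media here.

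*Pdcd1* (chr1:94038305-94052553, minus strand) was read at a low level. The CM libraries held 2 and 42 of its reads, the DM libraries 182 and 94, and the DM+Met libraries 81 and 110. On the log2 scale the levels were 0.30 and 2.67 in CM, 4.29 and 3.22 in DM, with 2.96 and 3.36 in DM+Met. All 4 libraries without complete medium lay above both CM libraries, the DM and DM+Met values overlapped, and CM library 1 lay far below CM library 2. In CPM, CM library 1 was at 0.228 (95% Poisson interval 0.0276 to 0.823) and CM library 2 at 5.38 (3.88 to 7.27), so their difference exceeded counting error. In DM, the mean was higher than in CM by 2.27 (SE 0.77, limma adjusted p = 0.0721), which did not pass the threshold. The 95% interval of that difference, not adjusted for the number of genes, ran from 0.54 to 4.0.

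The size of the *Pdcd1* difference depended on CM library 1. Without it, the difference between DM and CM was 1.08 (adjusted p = 0.317), and without CM library 2 it was 3.46 and passed the threshold (adjusted p = 0.0396). Without DM library 1 it was 1.73 (adjusted p = 0.369). The standard error of *Pdcd1* was larger than that of 94.6% of tested genes. Between DM+Met and DM, the difference was −0.60 with an interval from −2.32 to 1.13, that is, from a level 5.01-fold lower to one 2.19-fold higher. Without DM library 1, the library with the highest level, that difference was −0.059. The order of the means was DM, DM+Met and CM, and no neighbours in this order differed beyond the spread. From its RNA sequencing, the study described *Pdcd1* as raised in DM and the change as largely rescued by methionine. Neither of these differences passed the threshold here. In bulk RNA, fewer cells that express a gene and less RNA of it per cell cannot be told apart, which holds for every gene below.

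**Figure D2:**
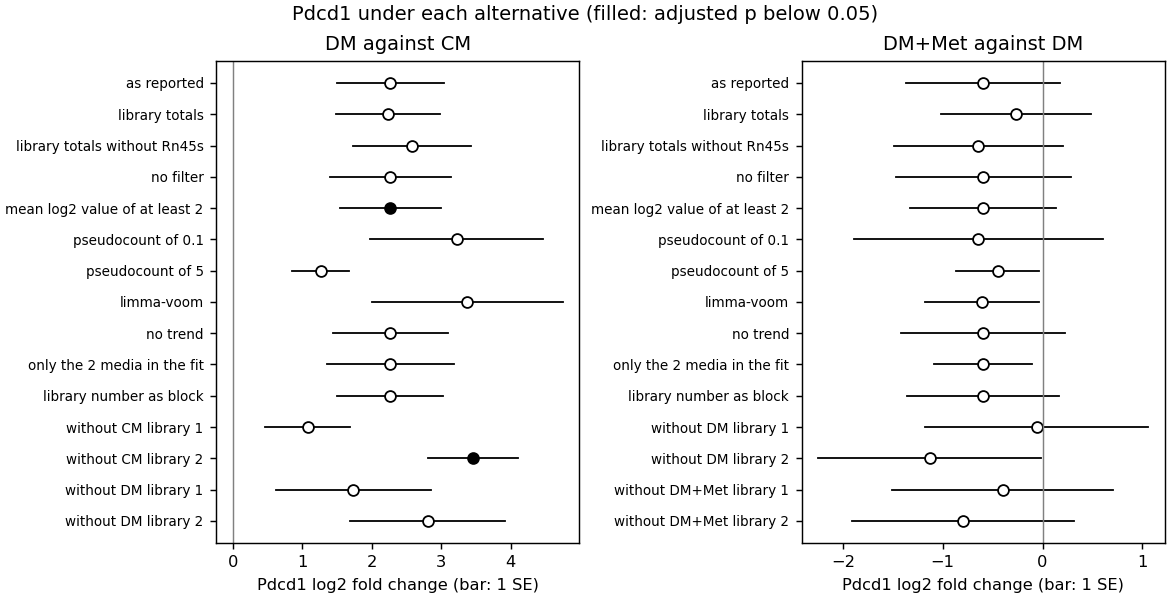
Log2 fold change of *Pdcd1* (horizontal axis, bars 1 SE) in DM against CM and in DM+Met against DM, as reported and under each alternative in which the gene was tested, with filled points at an adjusted p below 0.05. The values in DM against CM run from 1.08 to 3.46 and pass the threshold under a mean log2 filter and without CM library 2, and those in DM+Met against DM run from −1.13 to −0.059 with none past it.

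*Ctla4* (chr1:60887000-60915832, plus strand) was the most read member in every library and had the smallest adjusted p of the 9. Its reads numbered 3458 and 2943 in CM, 1199 and 1851 in DM, compared with 1502 and 1507 in DM+Met. Its CPM was 394 and 377 in CM, 122 and 163 in DM, followed by 126 and 127 in DM+Met. Both CM libraries lay well above the other 4, and the DM libraries lay on either side of the DM+Met libraries. *Ctla4* fell by 1.44 in DM (SE 0.18, adjusted p = 0.00105), a level 2.71-fold lower (95% interval 2.07 to 3.56). It fell in DM+Met by 1.60 relative to CM (SE 0.18, adjusted p = 4.29e-04). Both calls were kept when any library was left out and under each of 11 other settings, and without DM library 1 the difference between DM and CM was −1.23 (adjusted p = 0.0390). Between DM+Met and DM, the difference was −0.16 with an interval from −0.56 to 0.23, and it turned positive (0.20) when library totals were used in place of TMM factors. CD28, the activating receptor that shares the ligands of CTLA-4, was at 8.09 and 8.08 in CM, 7.59 and 7.52 in DM, with 7.52 and 7.82 in DM+Met. *Cd28* was called lower in DM (−0.53, adjusted p = 0.0490), a call that ended when any 1 of the 4 libraries was left out (adjusted p = 0.112 to 0.170) and was kept in 3 of 11 other settings.

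*Btla* and *Cd160* encode receptors that share the ligand HVEM (*Tnfrsf14*). *Btla* (chr16:45224315-45257670, plus strand) was read 190 and 278 times in CM, 802 and 684 times in DM, with 874 and 805 reads in DM+Met. On the log2 scale these were 4.50 and 5.19 in CM, 6.37 and 5.94 in DM, against 6.21 and 6.10 in DM+Met. The CM libraries were both below the other 4, and the DM and DM+Met libraries overlapped. *Btla* rose by 1.31 (SE 0.28) in DM (adjusted p = 0.0135) and by 1.31 (SE 0.28) in DM+Met (adjusted p = 0.0131) relative to CM, a 2.48-fold higher level in each. The call in DM ended without CM library 1 (0.96, adjusted p = 0.0953), without DM library 1 (1.09, adjusted p = 0.130) and without DM library 2 (1.52, adjusted p = 0.0702), and it stayed without CM library 2 (1.65, adjusted p = 0.0338). The call in DM+Met ended without CM library 1 (0.96, adjusted p = 0.0988) and without either DM+Met library (1.25 and 1.37, adjusted p = 0.183 and 0.154). Of 11 other settings, both calls ended without the intensity trend (adjusted p = 0.0678 in DM and 0.0778 in DM+Met) and with only the 2 media in the fit (0.0702 and 0.0577), and both were kept in the other 9. Between DM+Met and DM the difference was 0.0010 with an interval from −0.63 to 0.63.

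*Cd160* (chr3:96798763-96829351, minus strand) was nearly unread in CM, with 1 and 0 reads. It had 16 and 24 reads in DM and 6 and 62 in DM+Met. Every DM and DM+Met library was above the CM libraries, and the DM+Met libraries spanned the whole range seen in DM and beyond it. Set against the single read of CM, the 40 reads of DM were a ratio of 31.4 (95% counting interval 5.32 to 1271) in reads scaled to library size. That interval pools the reads of a medium and leaves out the spread between libraries. It is thus too narrow for a comparison of media and is not a test of one. The limma difference was 1.44 in DM (SE 0.71, adjusted p = 0.191) and 1.53 in DM+Met (adjusted p = 0.180), and neither was called. The gene overlaps *Pdzk1* on the other strand, though no exon of another gene lies in the last 500 bases at its 3′ end, where the reads of this kit are expected. The ligand gene *Tnfrsf14* was listed at 0 in 5 of the 6 libraries and was not tested.

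*Lag3* encodes a receptor for MHC class II that is related to CD4. *Lag3* (chr6:124904361-124911705, minus strand) was read 106 and 116 times in CM, 22 and 28 times in DM, and 19 times in each DM+Met library. The levels were 3.71 and 3.99 in CM, 1.70 and 1.80 in DM, with 1.37 and 1.38 in DM+Met. The media did not overlap, and the order was CM, DM and DM+Met. *Lag3* fell by 2.10 in DM (SE 0.53, adjusted p = 0.0256) and by 2.47 in DM+Met (SE 0.53, adjusted p = 0.0129) relative to CM. The difference between DM+Met and DM was −0.37 (adjusted p = 0.889), so these neighbours did not differ beyond the error of the fit. Without any 1 of the 4 libraries the differences stayed between −2.24 and −1.96 in DM, but the adjusted p was 0.0583 to 0.0888. In DM+Met they stayed between −2.61 and −2.33 with an adjusted p of 0.0568 to 0.145. Of 11 other settings, the call in DM ended in 4, namely without a filter (adjusted p = 0.0642), with a pseudocount of 0.1 (0.0551), with limma-voom (0.0533) and with only the 2 media in the fit (0.0763), and the call in DM+Met was kept in all 11.

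*Havcr2* and *Tigit*, which encode TIM-3 and a receptor for the poliovirus receptor family, were at the limit of detection. The reads of *Havcr2* numbered 7 and 0 in CM, 20 and 0 in DM, compared with 1 and 6 in DM+Met. *Tigit* had 3 reads in DM+Met library 2 and 0 in the other 5 libraries. A library with 0 reads allows up to 3 reads, and neither gene gave a difference between media that was detectable with these libraries. The DM libraries of *Havcr2* differed by more than counting error, at 2.04 CPM (95% Poisson interval 1.25 to 3.15) and 0 CPM (0 to 0.326).

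*Cd200* and *Cd274* encode ligands that engage inhibitory receptors on other cells or on the T cell itself. *Cd200* had levels of 5.16 and 4.50 in CM, 5.50 and 5.25 in DM, followed by 5.28 and 5.10 in DM+Met. Its DM libraries lay just above its CM libraries, by 0.55 on average (SE 0.30, adjusted p = 0.239). *Cd274*, the gene for PD-L1, had levels of 5.94 and 5.83 in CM, 5.56 and 5.47 in DM, while DM+Met had 6.12 and 5.66. Every other library lay above both DM libraries, with differences of −0.37 (SE 0.24, adjusted p = 0.322) from CM and of 0.37 (SE 0.24, adjusted p = 0.670) from DM to DM+Met. *Cd274* in DM+Met and CM differed by 0.0060 with an interval from −0.52 to 0.54. Neither gene passed the threshold under any alternative.

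**Figure D3:**
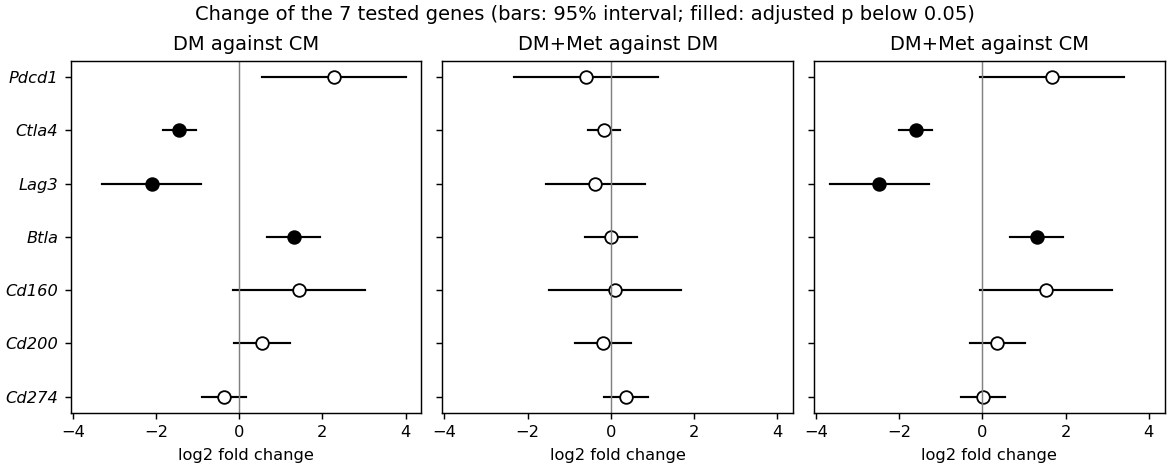
Log2 fold change (horizontal axis) of the 7 tested members in the 3 comparisons, with bars for the 95% interval of limma and filled points at an adjusted p below 0.05. *Ctla4* and *Lag3* are filled on the negative side and *Btla* on the positive side in both comparisons with CM, and no point is filled in DM+Met against DM.

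The make-up of the reads of the 9 genes differed between CM and the other media. Summed over the 9 genes, the level was 524 and 510 CPM in CM, 319 and 317 in DM, against 314 and 294 in DM+Met. *Ctla4* took 75.2% and 73.9% of these reads in CM, 38.3% and 51.5% in DM, with 40.0% and 43.1% in DM+Met. *Btla* took 4.13% and 6.98% in CM, 25.6% and 19.0% in DM, compared with 23.3% and 23.0% in DM+Met. In CPM, the sum differed from CM by less than *Ctla4* alone did, and *Btla* took a larger share in all 4 libraries without complete medium. For every 100 reads of *Ctla4* there were 5.50 and 9.45 reads of *Btla* in CM, 66.9 and 37.0 in DM, followed by 58.2 and 53.4 in DM+Met. The same ratio for *Pdcd1* was 0.058 and 1.43 in CM, 15.2 and 5.08 in DM, while DM+Met had 5.39 and 7.30. Ratios within a library do not depend on how the library is scaled, and for both genes the CM libraries were below the other 4. The ratio also rises for a gene that merely fell less than *Ctla4*, so it does not show that *Btla* or *Pdcd1* rose. For *Cd274*, which was not called, it was 15.3 and 14.8 in CM and 37.8 and 26.6 in DM. *Cd200* and *Cd160* were also lowest in CM by this ratio, and *Lag3* was highest there.

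**Figure D4:**
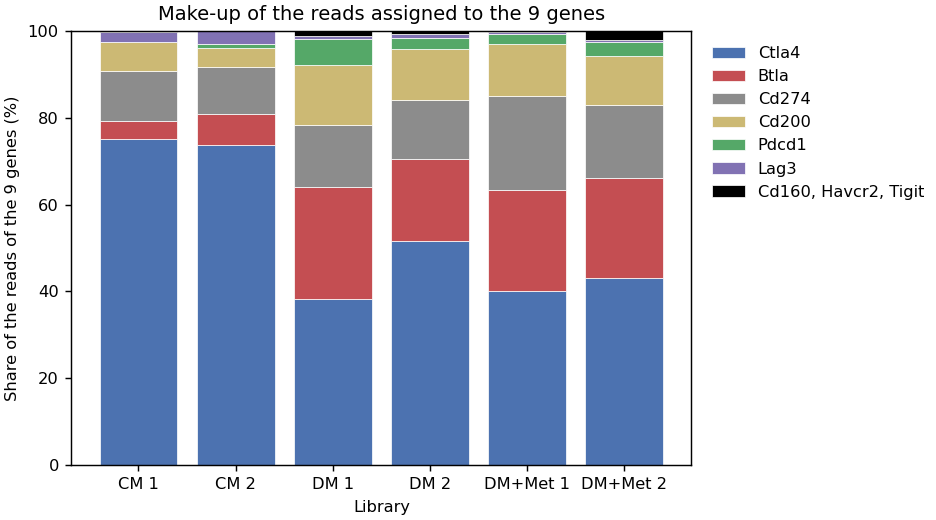
Share of the reads of the 9 genes (vertical axis, in percent) taken by each gene in each of the 6 libraries, with the 3 least read genes together in black. *Ctla4* takes over 73% in both CM libraries and less than 52% in the other 4, where *Btla* takes 19.0% to 25.6%.

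The ligands and binding partners of these receptors moved in both directions. Of 13 genes in this list, 10 were tested, and in DM against CM 1 was called higher and 2 lower, with a median of −0.0030. *Cd86*, a ligand of CD28 and CTLA-4, had levels of 5.04 and 4.55 in CM, 2.87 and 2.61 in DM, against 4.07 and 3.57 in DM+Met. It fell by 2.05 in DM (SE 0.42, adjusted p = 0.0109), and the DM+Met libraries lay between the DM and the CM libraries. *Lgals9*, which encodes the TIM-3 ligand galectin-9, was at 6.40 and 6.47 in CM, 4.96 and 5.29 in DM, with 6.34 and 6.16 in DM+Met. It fell by 1.31 in DM (SE 0.22, adjusted p = 0.00445), a call kept without any 1 library. Between DM+Met and DM, *Lgals9* differed by 1.12 (adjusted p = 0.173) and *Cd86* by 1.08 (adjusted p = 0.447), and neither passed the threshold. *Ceacam1*, a further partner of TIM-3, was listed at 0 in both CM libraries and had 44 and 27 reads in the DM libraries (adjusted p = 0.0337). Its DM mean was 9.47-fold above a floor of 3 reads per CM library, a value that leaves out the spread and counting error in DM. *Ceacam1* had enough reads to be tested only through the DM libraries, in which it was called higher, so its test was not independent of that choice. Leaving out 1 library ended the call of *Cd86* in 3 of 4 cases and that of *Ceacam1* in 3 of 4.

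Relative to CM, 1 of these 10 genes was called higher and 0 lower in DM+Met, with a median of 0.45 (0.29 with genes at 0 in CM set to a floor of 3 reads per library). This was *Pdcd1lg2*, the gene for the second PD-1 ligand, at 1.02 and 2.58 in CM, 3.55 and 3.74 in DM, compared with 3.74 and 3.82 in DM+Met. All 4 libraries without complete medium were above both CM libraries. The difference was 1.98 in DM+Met (SE 0.59, adjusted p = 0.0497), a call kept in 5 of 10 other settings and in 1 of 4 cases with a library left out, and 1.84 in DM (adjusted p = 0.0591). As for *Pdcd1*, CM library 1 was the lowest.

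Among 15 other inhibitory receptors, all tested, 5 were called higher and 1 lower in DM, with a median of 1.04. *Nt5e*, which encodes the ectoenzyme CD73 that makes adenosine, rose by 2.48 (SE 0.43, adjusted p = 0.00476) from 2.35 and 2.76 in CM to 4.52 and 5.55 in DM. *Cd96*, a receptor that shares a ligand with TIGIT, rose by 1.96 (adjusted p = 0.00473), and *Cd5*, a receptor that tempers antigen receptor signals, by 1.42 (adjusted p = 0.00591). *Lilrb4a*, a receptor with inhibitory tail motifs, fell by 2.31 (adjusted p = 5.32e-04) from 7.21 and 7.03 to 5.10 and 4.53. Of the same 15, 5 were called higher and 1 lower in DM+Met relative to CM, with a median of 0.65. *Nt5e* differed by 2.36 (adjusted p = 0.00549), *Cd96* by 1.71 (adjusted p = 0.00833) and *Cd300a*, a receptor with an inhibitory tail, by 1.89 (adjusted p = 0.0479). *Klrb1c*, an NK cell receptor gene at 0 in both CM libraries, had 45 and 34 reads in DM+Met (adjusted p = 0.0294). Its DM+Met mean was 9.13-fold above a floor of 3 reads per CM library. *Klrb1c* and *Cd300a* had enough reads to be tested only through DM or DM+Met libraries, so their tests were not independent of that choice. The calls of *Klrb1c* and *Cd300a* ended when any 1 of the 4 libraries was left out. In DM, the call of *Lilrb4a* was kept in 4 of 4 such cases, that of *Cd96* in 3, and those of *Nt5e* and *Cd5* in 2 each.

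Of 13 activating counterparts, all tested, 3 were called higher and 1 lower in DM, with a median of 0.0045. *Slamf6*, a receptor of the SLAM family, rose by 3.21 (adjusted p = 0.00977) from 1.10 and 3.32 in CM to 4.95 and 5.89 in DM. *Cd226*, the activating receptor that competes with TIGIT and CD96 for ligands, rose by 2.26 (adjusted p = 0.0274), and the adhesion receptor *Cd2* rose by 0.84 (adjusted p = 0.00403). Relative to CM, 4 were called higher and 1 lower in DM+Met, with a median of 0.19. *Slamf6* differed by 3.29 (adjusted p = 0.00846), *Cd226* by 2.39 (adjusted p = 0.0223), *Cd84*, also of the SLAM family, by 1.28 (adjusted p = 0.0438) and *Cd2* by 0.96 (adjusted p = 0.00168). *Cd226* had 4 and 3 reads in CM and enough reads to be tested only through the other media. Its tests were thus not independent of that choice. Without any 1 library the call of *Cd226* ended in both comparisons, and that of *Slamf6* was kept in 1 of 4 cases in each.

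Of 19 genes for signaling proteins that act at receptor tails, 2 were called higher and 0 lower in DM, with a median of 0.35. *Fyn*, a kinase that phosphorylates receptor tails, rose by 1.47 (SE 0.17, adjusted p = 8.78e-04) from 6.60 and 6.84 in CM to 8.10 and 8.29 in DM, a call kept without any 1 library. *Trat1*, an adaptor of the antigen receptor, was listed at 0 in both CM libraries and had 18 and 73 reads in the DM libraries (adjusted p = 0.0397). Its DM mean was 11.4-fold above a floor of 3 reads per CM library, without the spread in DM. *Trat1* had enough reads to be tested only through DM or DM+Met libraries, so its test was not independent of that choice. The call of *Trat1* was kept in 1 of 4 cases with a library left out. *Ptpn11*, which encodes the phosphatase SHP-2 that PD-1 recruits, was not among the called genes. The phosphatase gene *Ptpn6* was not called in DM but was called lower in DM+Met against CM (−0.60, adjusted p = 0.0309). How that call holds under the alternatives is not given. When DM+Met was compared with CM, 1 was called higher and 4 lower, with a median of −0.15, among them the phosphatase genes *Ptpn22* (−1.12, adjusted p = 0.00489) and *Ptpn2* (−0.97, adjusted p = 0.0360) and the adaptor *Dok1* (−1.14, adjusted p = 0.0332). Leaving out 1 library ended the calls of *Ptpn2* and *Dok1* in 4 of 4 cases and that of *Ptpn22* in 3 of 4.

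Genes known to regulate *Pdcd1* were called in both directions. Of 28 such genes, 6 were called higher and 8 lower in DM, with a median of 0.077. *Tox*, a factor that sustains PD-1 expression in exhausted T cells, was at 1.94 and 2.52 in CM, 5.67 and 5.68 in DM, followed by 5.50 and 5.97 in DM+Met. It rose by 3.44 in DM (SE 0.35, adjusted p = 3.90e-04) and by 3.50 in DM+Met (adjusted p = 2.37e-04), and both calls were kept without any 1 library. *Tbx21*, which encodes T-bet, a repressor of *Pdcd1*, was at 6.35 and 6.07 in CM, 3.90 and 1.97 in DM, while DM+Met had 3.25 and 2.33. It fell by 3.27 in DM (SE 0.61, adjusted p = 0.00691), a call kept in 1 of 4 cases with a library left out. *Jun* and *Batf*, AP-1 family members, fell by 1.61 and 1.02 in DM (adjusted p = 0.00355 and 0.0147). When DM+Met was compared with CM, 4 were called higher and 9 lower, with a median of 0.19, among them *Tbx21* at −3.42 (adjusted p = 0.00528), *Prdm1*, the gene for Blimp-1, at −1.76 (adjusted p = 0.0147) and *Irf9*, of the interferon response, at 1.45 (adjusted p = 0.00176). Leaving out 1 library ended the call of *Tbx21* in DM+Met in 4 of 4 cases, that of *Prdm1* in 3 and that of *Irf9* in 2, and in DM that of *Batf* in 4 and that of *Jun* in 1. Between DM+Met and DM, 0 genes of any of these lists were called by limma, where over all genes 1238 of 12770 had an unadjusted p below 0.05 and 7 were called.

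**Figure D5:**
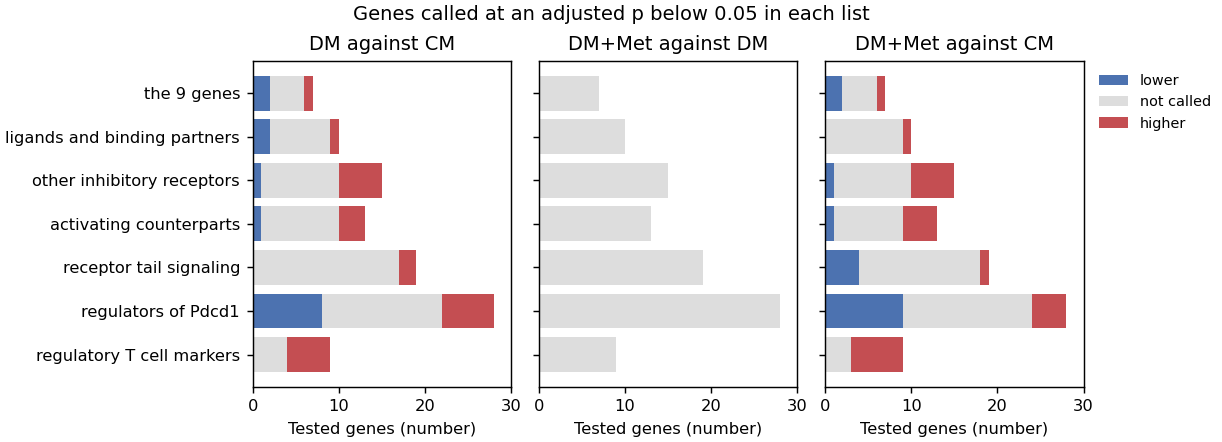
Number of tested genes (horizontal axis) called lower, not called and called higher at an adjusted p below 0.05 in each gene list, for the 3 comparisons. Calls appear in both comparisons with CM, for example 6 higher and 8 lower among the 28 regulators of *Pdcd1* in DM, and none of these lists holds a call in DM+Met against DM.

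The study placed AMPK (*Prkaa1* for its catalytic subunit), the stress factor XBP1, its activator IRE1α (*Ern1*) and the H3K79 methyltransferase DOT1L upstream of PD-1. Its evidence included immunoblots, AMPK knockout cells, inhibitors, knockdown and chromatin immunoprecipitation. From RNA sequencing of 2 samples per medium, it also reported *Prkaa1* as significantly lower in DM than in CM. The fit used here did not call that difference. The RNA levels here do not measure protein, enzyme activity or histone methylation. *Prkaa1* was at 4.88 and 5.32 in CM, 4.42 and 4.52 in DM, against 5.03 and 4.82 in DM+Met. Both DM libraries were the lowest, with differences of −0.63 from CM (SE 0.30, adjusted p = 0.174) and of 0.45 from DM to DM+Met (adjusted p = 0.679). *Xbp1* was at 7.26 and 7.15 in CM, 6.66 and 6.82 in DM, with 6.42 and 6.68 in DM+Met. It was called lower in DM+Met against CM (−0.65, SE 0.18, adjusted p = 0.0392), a call that ended when any 1 of the 4 libraries was left out (adjusted p = 0.106 to 0.306). It was kept in 5 of 11 other settings, and with library totals the difference of *Xbp1* shrank to −0.26 (adjusted p = 0.331). *Dot1l* and *Ern1* passed the threshold in no comparison. These are levels of whole transcripts, and the spliced form of *Xbp1* mRNA is not separated in 3′-end reads.

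Markers of other cell types were measured beside these genes. The 10 CD4 T cell markers were all read in every library and summed to 1664 to 1783 CPM in CM, 1818 to 2166 in DM, and 1919 to 1960 in DM+Met. Regulatory T cell markers, which mark a CD4 subset with high CTLA-4, summed to 2060 and 2062 CPM in CM, 2937 and 2559 in DM, compared with 3243 and 3091 in DM+Met. Most of this sum came from *Il2ra* and *Tnfrsf18*, neither of which was called in any comparison, so it is not a measure of that subset. Of these 9 markers, 5 were called higher in DM and 6 in DM+Met relative to CM, and none was at 0 in any library. These called markers were higher in the media in which *Ctla4* was lower and *Btla* and *Tox* were higher. The defining factor *Foxp3* was at 5.16 and 4.10 in CM, 5.71 and 4.81 in DM, followed by 7.21 and 7.41 in DM+Met. Its DM and CM libraries overlapped, and it was not called in DM against CM (0.63, limma adjusted p = 0.285). In DM+Met against CM it was called higher (2.68, limma adjusted p = 0.00168).

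CD8 T and NK cell markers summed to 120 and 134 CPM in CM, 47.3 and 48.1 in DM, while DM+Met had 65.8 and 64.1, with 2 of 7 tested called lower in both comparisons with CM and 1 called higher in DM+Met. Follicular helper T cell markers summed to 126 and 137 CPM in CM, 59.1 and 72.7 in DM, against 50.4 and 54.2 in DM+Met, with 2 of 7 called lower in both. These sums were lower in the same media as *Lag3* and *Tbx21*. By fold change, 3 of the 7 tested CD8 T and NK cell markers were higher in DM and 4 of 7 in DM+Met. Of the follicular helper markers, 3 of 7 were higher in each. B cell markers summed to 115 to 154 CPM with *Pax5* at 0 in every library, and 1 of 9 tested was called higher and 1 lower in DM. Markers of myeloid and dendritic cells, which are known for *Cd86*, summed to 411 and 471 CPM in CM, 320 and 269 in DM, with 308 and 373 in DM+Met. *Clec9a* was at 0 in every library, and 1 of 18 tested was called higher and 2 lower in DM. Most of the sum came from *H2-Aa*, *H2-Ab1* and *Cd74*, and the 2 called lower were *H2-Ab1* and *Cd74*. By fold change, 10 of the 18 were higher and 8 lower in DM, with a median of 0.30, so the sum does not describe most of these markers. The part of any of these cell types in the results was not tested. Some genes stand in a receptor or regulator list and in a marker list, namely *Cd5*, *Klrb1c*, *Tnfrsf18*, *Sh2d1a*, *Tox2*, *Bcl6* and *Eomes*.

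Finally, the genes whose pattern over the 6 libraries was nearest to that of *Pdcd1* and *Ctla4* were sought among the 10874 genes whose mean over libraries reached 20 reads. The measure was the root mean square difference of log2 values after each gene was centered. For *Pdcd1*, which itself varied by 1.23 around its mean, they were *Slc38a6* (0.243), *Scarna17* (0.248), *Aoc2* (0.268), *Slc5a6* (0.291) and *Zfp579* (0.294). All 5 had their lowest value in CM library 1 and their highest in DM library 1, as *Pdcd1* did. For *Ctla4*, which varied by 0.73, they were *Dennd3* (0.083), *G2e3* (0.084), *Rps2* (0.094), *Uhrf1* (0.096) and *Clcf1-pold4* (0.105), all with both CM libraries above the other 4. Both sets were picked by likeness over the same 6 libraries, so the shared order of libraries follows from that choice and is no separate result. These are descriptions of 6 libraries.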

How the data were processed

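RNA of CD4 T cells in CM, DM and DM+Met (3 samples with 2 numbered files each) was sequenced from 500 ng of total RNA with the Lexogen QuantSeq kit. The authors deposited log2 values of TMM-normalized CPM plus 1 for 23282 rows, 44 of which repeat a symbol. The submitters' processing notes name mm10, Bowtie2 and bedtools, whereas the annotation, the use of strand and the filters are not given in the sources used here, so overlapping and antisense genes could not be separated. Equal steps between the unlogged values showed the base and the added 1 and gave back the reads. For values of no more than 300 reads, 99.776% to 100.0% per library came within 0.1 of a whole read.

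Rows with at least 0.946 CPM (10 reads at median depth) in 2 libraries and at least 15 reads in total were tested in 1 fit of all 6 libraries with lmFit and eBayes of limma 3.58.1, run in R 4.3.3 (intensity trend, 6.87 prior degrees of freedom, two-sided). Every adjusted p comes from this fit by the Benjamini-Hochberg method over 12770 rows, with a threshold of 0.05. Genes with few or no reads in CM, among them *Ceacam1*, *Trat1*, *Klrb1c*, *Cd226*, *Cd300a* and *Cd160*, met this rule only through libraries of DM or DM+Met. Their tests are thus not independent of the rule. Differences refer to log2(CPM + 1), on which changes of rarely read genes appear too small. The code of the fit was also run on simulated counts in which only genes above a set mean level were changed. That run does not cover genes with few reads or libraries that stand apart.

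Libraries of a medium differed by more than sampling noise (chi-square per degree of freedom 18.2 to 35.9), so none was a copy of another. Alternatives were another scaling, filter, pseudocount or test, a block for the library number, and leaving out each library. The members and all gene lists were chosen with earlier results of these data known. Named are the members and, from each other list, at most 4 called genes with the greatest change relative to CM, every called gene in DM+Met against DM, and all 4 genes of the AMPK and XBP1 group. *Pdcd1lg2* in DM, the absence of a call for *Ptpn11*, the calls of *Ptpn6* and the marker *Foxp3* were added after their values were seen. Gene positions are from GENCODE M21 (GRCm38), promoters from RefSeq, which held 8 of the 9 members and not *Lag3*. Python 3.11.15 with numpy 2.4.6, pandas 2.3.3 and matplotlib 3.10.9 was used.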

Additional observations from a re-analysis of the deposited data

How the results depend on the processing

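Over 993 values of named genes under the alternatives, 801 kept their direction and their side of the threshold, 169 lost a call, 6 gained one and 17 changed sign. None of the 17 was called. The cause of these changes was not tested unless stated. The number of genes called in DM against CM (2154) was 1329 without the intensity trend, 795 with only the 2 media in the fit, and 541 to 1061 with a library left out. In DM+Met against DM (7) it was 55 with library totals, 2 without a filter and 27 where every library needed 10 reads. With a mean log2 of at least 2 it was 17, with a pseudocount of 5 it was 13, and with limma-voom on recovered reads 21. It was 0 without the trend (1192 at an unadjusted p below 0.05) and with only the 2 media (1303), and no call held with a library left out. In DM+Met against CM (1952) it was 1265 without a filter, 944 without the trend and 268 to 873 with a library left out. Among named genes outside the members, the calls in DM of *Cd86*, *Cd5*, *Cd2*, *Slamf6*, *Batf*, *Ceacam1*, *Cd226* and *Trat1* and those in DM+Met of *Cd2*, *Ptpn22*, *Klrb1c*, *Slamf6*, *Dok1*, *Prdm1*, *Cd226*, *Cd84*, *Ptpn2* and *Cd300a* ended in 1 to 5 of 9 to 11 settings other than a left-out library. A medium left with 1 library is assumed to vary like the others.

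Scaling moved directions. With library totals, the median of all tested genes was 0.34 in DM+Met against DM and 0.41 in DM+Met against CM, and relative to it *Ctla4* (0.20), *Cd200* (0.17) and *Xbp1* (0.17) in DM+Met against DM and *Prkaa1* (0.21) in DM+Met against CM, all now positive, were still lower than the median gene. Library totals without *Rn45s* turned *Dot1l* in DM against CM to 0.011 and *Btla* in DM+Met against DM to −0.034. *Cd160* in DM+Met against DM was −0.13 with a pseudocount of 0.1 and −0.19 with limma-voom. The share of calls that were higher was 46.2% in DM against CM and 59.6% with library totals without *Rn45s*, and 45.3% in DM+Met against CM, 76.3% with library totals and 57.4% without *Rn45s*. It was 71.4% in DM+Met against DM and 92.7% with library totals.

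With a library left out, *Dot1l* in DM against CM ranged from −0.30 to 0.0085, *Ctla4* in DM+Met against DM from −0.37 to 0.045, *Btla* from −0.21 to 0.22 and *Cd160* from −0.93 to 1.12, and *Cd274* in DM+Met against CM from −0.22 to 0.23 and *Prkaa1* from −0.39 to 0.041. The library numbers did not pair the samples (correlations of deviations −0.025, 0.0050 and −0.030), and a fit with the replicate block gave 1947, 7 and 1797 calls and ended those of *Cd28* in DM and of *Xbp1* and *Cd300a* in DM+Met. Differences of genes with few reads, *Havcr2*, *Tigit* and *Cd160* among them, are limited by depth. For *Havcr2* in DM and *Cd160* in DM+Met, the libraries of the medium also differed by more than counting error.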
